A study of Triticum aestivum with 34 samples.

Results

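Gene expression in central spikelets of bread wheat (Triticum aestivum, genotype shimai22, untreated) was compared between 2 days of ear development. A spikelet is the unit of the wheat ear that holds the florets, and a central spikelet sits in the middle of the ear. The groups were 3 libraries of central spikelets taken 9 days after the terminal spikelet stage, when the tip of the young ear makes no further spikelets, and 3 libraries of central spikelets taken 6 days after it. Basal spikelets of the same genotype on the same days, with 3 libraries each, served to show where the change differed between positions. The gene models compared were those with at least 1 FPKM (fragments per kilobase of transcript, scaled to library size) in at least 2 of the 6 central libraries, which were 55333 of the 162233 models in the table. Of these, 43873 were of the high-confidence class and 9366 of the low-confidence class, 881 joined several annotated genes and 1213 had no annotated gene name. The threshold itself separated similar models, since 981 models had a second-highest FPKM of 1 to 1.05 and 824 had one from 0.95 up to 1. Nothing in the labels says how many plants a library held or if each replicate was grown apart, so p-values measure only the spread between these samples, which may be technical.

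In the wheat ear, the days after the terminal spikelet stage are those in which florets form their organs, while the stem below them lengthens. Inside each anther, an inner cell layer called the tapetum surrounds the cells that undergo meiosis, feeds the microspores that result from it and makes the precursors of exine, the tough outer pollen wall. Basic helix-loop-helix factors such as UDT1, TDR and EAT1, known from rice, act in order in the tapetum. Lemmas, paleas and glumes, the leaf-like organs of the spikelet, become green, and their epidermis lays down a cuticle of wax and cutin.

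The 6 libraries held 102223015 to 124350569 estimated counts each. On day 9, 51942 to 52334 models per library reached 1 FPKM, against 50264 to 50724 on day 6. Correlations of log2 expression were 0.9748 to 0.9789 between libraries of the same day and 0.8729 to 0.895 between days, and the first principal component, with 77.8% of the variance, separated the days. Defining floral markers were present on both days. The 3 models of the APETALA3 group, which specify stamens and lodicules, averaged up to 24.8 FPKM on day 9 and up to 27.6 FPKM on day 6, with log2 differences of -0.22 to 0.13, and none of them passed the test. DROOPING LEAF, a YABBY factor that marks the carpel in rice, averaged 15.6 FPKM on day 9 and 16.5 FPKM on day 6 and did not pass the test either.

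Of the 55333 models, 26627 (48.1%) differed between the days in edgeR's quasi-likelihood test at an adjusted p under 0.05 (Benjamini-Hochberg over all 71963 models tested in the series, of which 42.0% were called). Expression was higher on day 9 for 12311 models (22.2%) and lower for 14316 (25.9%). With the authors' FPKM tested by limma on log2(FPKM + 0.1), the split was 14080 higher and 10737 lower. The FPKM of the 3 libraries of each day did not overlap in either direction for most models, with day 9 above in 31.7% and below in 29.8%. The increases were larger than the decreases. The median log2 difference was 0.82 among models called higher and -0.57 among models called lower, against -0.06 over all models compared. More than 2-fold changes comprised 4944 increases (8.93%) and 2324 decreases (4.2%), and more than 8-fold changes comprised 999 increases and 39 decreases. In all, 133 models were at 0 in all day 6 libraries, of which 130 were called higher, and 8 were at 0 in all day 9 libraries. Of the models compared, 3113 reached 1 FPKM on day 9 but in no day 6 library, and 2572 of those were called higher. Because such models had to be higher on day 9 to be compared, counts for many lists are also given over the models that reached 1 FPKM in at least 2 libraries on both days. Over all 47662 models of that kind, 19.6% were higher and 26.6% lower.

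**Figure D1:**
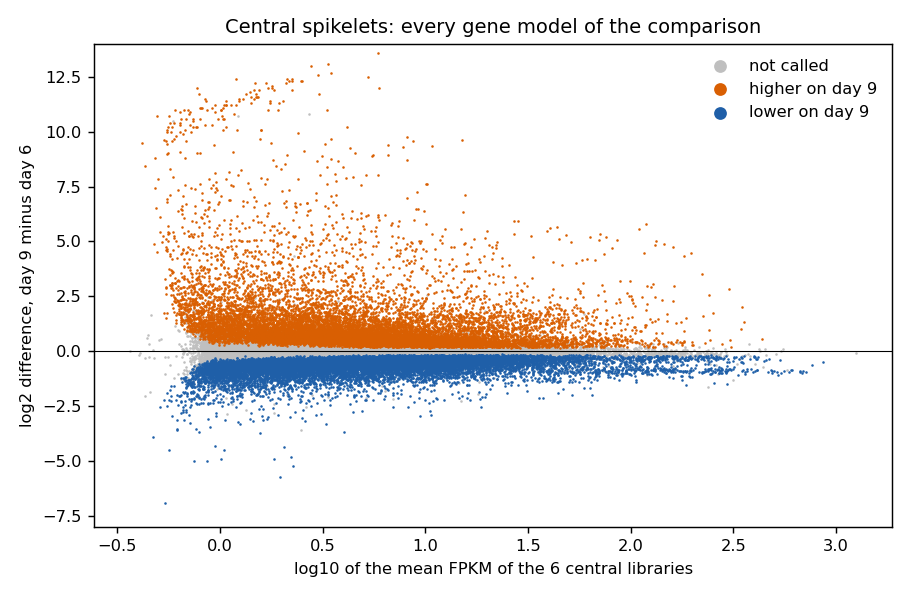
Each point is 1 of the 55333 gene models, placed by its mean FPKM over the 6 central libraries (log10 axis) and its log2 difference, day 9 minus day 6. Increases (orange) reach far larger sizes than decreases (blue), with 999 against 39 past 8-fold; the fitted values of models at 0 on day 6, seen near the top, depend on the prior count and are not bounds.

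The lists of named genes moved to very different extents. Nearly all antenna, photosystem and chlorophyll genes rose, while histones, division, meiosis and small RNA genes were mostly among those that fell. Most pollen wall genes compared rose as well, but 22 of these 33 models reached 1 FPKM on day 9 and in no day 6 library. Of the 10 expressed on both days, 4 were higher.

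**Figure D2:**
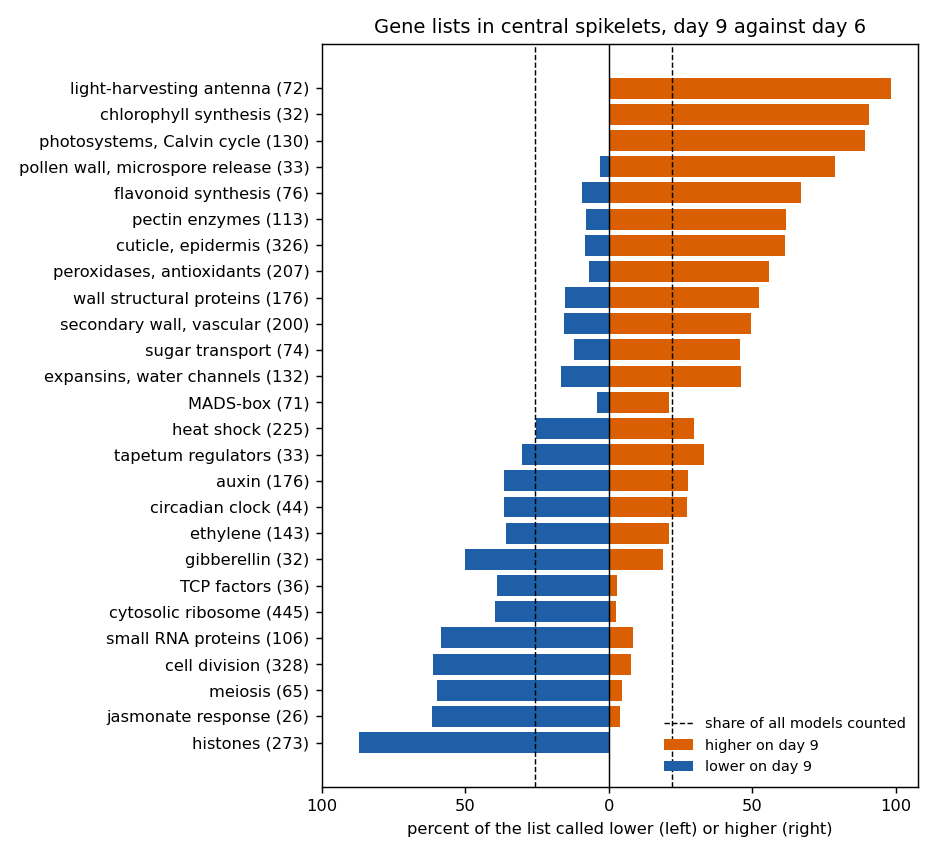
Percent of each gene list called higher (orange, right) or lower (blue, left) on day 9 against day 6 in central spikelets, with the number of models in brackets; dashed lines give the shares over all 55333 models, 22.2% higher and 25.9% lower. Light-harvesting genes stand at 98.6% higher and histones at 87.2% lower. The pollen wall list was chosen after its values were seen, and 22 of its 33 models reached 1 FPKM on day 9 but in no day 6 library.

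Of the genes compared for building the pollen wall and freeing the microspores, most were higher on day 9, and many were close to 0 on day 6. Of 53 such models tested in the series, 33 were expressed enough in these 6 libraries to be compared; 26 were higher, 1 was lower and 6 did not pass the test. Their summed expression was 277.4 to 283.0 FPKM per library on day 9, against 50.8 to 57.6 FPKM on day 6. Of the 33 models, 22 reached 1 FPKM on day 9 but in no day 6 library, and of the 10 that did so on both days 4 were higher and 1 lower. The single decrease was an A6-type glucanase of the low-confidence class, TraesCS5D03G0655300LC, with 1.67, 1.57 and 1.61 FPKM on day 9, against 2.83, 3.5 and 3.67 FPKM on day 6 (log2 difference -1.11 ± 0.23 SE, adjusted p = 0.000315). The 6 models that did not pass were a copy of ABCG26, a second A6-type glucanase, DEFECTIVE IN EXINE FORMATION 1 and 3 STRICTOSIDINE SYNTHASE-LIKE 10 models. In whole spikelets, more cells of a type and more RNA per cell cannot be told apart.

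The first steps of the exine precursor pathway hydroxylate and reduce fatty acids in the tapetum. CYP704B1, the fatty acid omega-hydroxylase of this pathway, lies on chromosome 4A at 12532297 to 12534546 in its 4A copy, TraesCS4A03G0032700. It had 6.39, 6.47 and 6.63 FPKM on day 9, against 0.02, 0 and 0 FPKM on day 6. Day 6 was thus at or next to 0 and day 9 steady across libraries (adjusted p = 6.22e-16). The 4B and 4D copies showed the same, and all 3 averaged 6.46 to 6.85 FPKM on day 9 and no more than 0.307 FPKM on day 6.

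Tetraketide alpha-pyrone reductases, which reduce the polyketide precursors of sporopollenin, rose in 4 of 4 models of the TKPR1 type. The 5B copy, TraesCS5B03G0708100, lies on chromosome 5B at 460175404 to 460177295 and had 17.4, 19.4 and 21.1 FPKM on day 9, against 0.81, 0.65 and 0.88 FPKM on day 6 (log2 difference 4.55 ± 0.17 SE, adjusted p = 6.63e-17). Its 5A homoeolog, TraesCS5A03G0669000, had 15.6, 15.3 and 17.8 FPKM on day 9, against 0.18, 0.05 and 0.11 FPKM on day 6 (log2 difference 6.99 ± 0.30 SE, adjusted p = 6.22e-16). The TKPR2 model TraesCS3D03G0060200 had 8.42, 8.2 and 9.17 FPKM on day 9, against 0.03, 0 and 0 FPKM on day 6 (adjusted p = 1.64e-14). In each of these the day 9 libraries all lay above every day 6 library.

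Further genes of the pollen wall named here mostly followed the same course. The fatty acyl-CoA reductase 2-like model TraesCS4D03G0668100, of the enzyme group that makes fatty alcohols for exine, had 5.28, 5.49 and 5.55 FPKM on day 9, against 0.03, 0.05 and 0.09 FPKM on day 6 (log2 difference 6.44 ± 0.50 SE, adjusted p = 6.48e-11). ABCG26, the transporter that exports sporopollenin precursors from the tapetum, rose in 2 of 3 copies, and the 7A copy TraesCS7A03G0920900 had 2.14, 2.66 and 2.89 FPKM on day 9, against 0.04, 0 and 0.02 FPKM on day 6 (log2 difference 6.83 ± 0.46 SE, adjusted p = 5.23e-14). The third, TraesCS7B03G0764700, had 1.41, 1.56 and 1.07 FPKM on day 9, against 0.67, 0.67 and 0.59 FPKM on day 6 and did not pass the test (adjusted p = 0.0695); limma on log2(FPKM + 1) and a fit of the 6 libraries alone called it higher. RAFTIN proteins, which wheat places from the tapetum onto orbicules and the pollen surface, rose in all 3 copies. The highest was RAFTIN 1A on 7A, TraesCS7A03G0550600, with 49.8, 49.2 and 50.5 FPKM on day 9, against 6.67, 4.67 and 6.51 FPKM on day 6 (log2 difference 3.0 ± 0.30 SE, adjusted p = 8.76e-09).

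Some enzymes of kinds that free microspores from their tetrads were higher as well. Among A6-type glucanases, 1 was lower and another did not pass the test, as given above. The 3 GII-like glucanases on group 3, of a kind that digests beta-1,3-glucans such as callose, averaged 4.78 to 6.01 FPKM on day 9. TraesCS3A03G1131500 had 8.91, 4.14 and 4.97 FPKM on day 9, against 0, 0 and 0 FPKM on day 6, at least 68.6-fold higher against a floor of 12 counts in each day 6 library. QRT1, a pectinesterase that Arabidopsis needs to separate pollen grains, had 3.39, 6.29 and 5.69 FPKM on day 9, against 0, 0 and 0.02 FPKM on day 6 in its 2B copy TraesCS2B03G0480100. Day 9 replicate 1 had the highest value for the glucanase and the lowest for QRT1, and all 3 libraries stood well apart from day 6. INAPERTURATE POLLEN1-like models, which in Arabidopsis mark where pollen openings form, rose less, by 1.02 to 1.49 on the log2 scale in 3 of 3 copies. Their means were 1.5 to 2.42 FPKM on day 9, against 0.67 to 0.827 FPKM on day 6. With day 6 means below 1 FPKM, the threshold for comparison favoured increases.

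**Figure D3:**
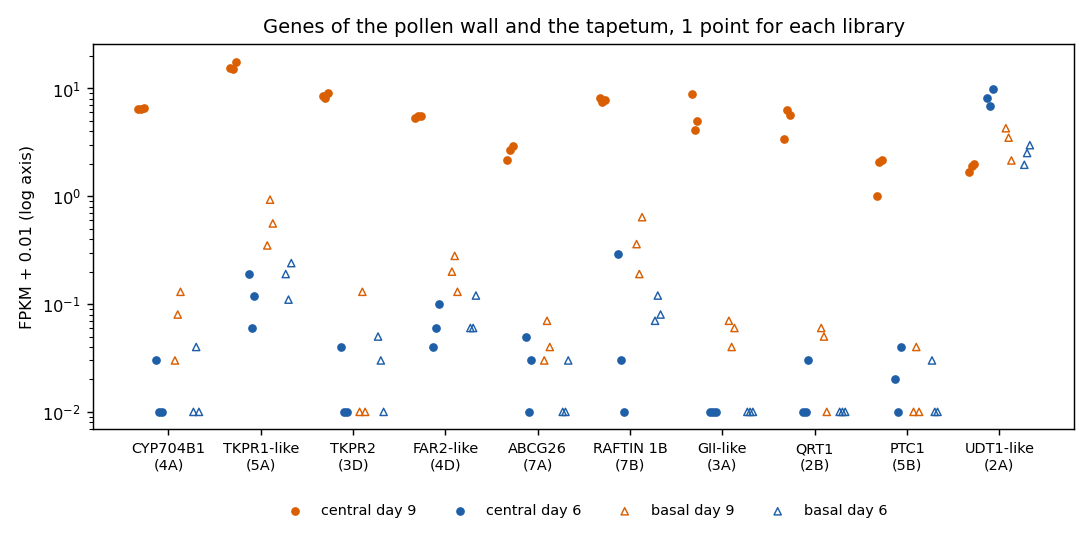
FPKM + 0.01 (log axis) of 10 genes of the pollen wall and tapetum, with 1 point for each library: central day 9 (filled orange), central day 6 (filled blue), basal day 9 (open orange) and basal day 6 (open blue). In 9 genes the central day 9 points lie above all others. UDT1-like shows the reverse between the central days, with 1.67 to 1.97 FPKM on day 9 and 6.89 to 9.87 FPKM on day 6. For ABCG26, GII-like and QRT1 the change from day 6 to day 9 did not pass the test of a difference between positions.

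Regulators of the tapetum changed by family. Of 33 such models, 11 were higher (33.3%) and 10 lower (30.3%), and of the 24 expressed on both days 6 were higher and 10 lower. The early factor UDT1 fell in both copies. TraesCS2A03G0452800, on chromosome 2A at 201649130 to 201650927, had 1.67, 1.88 and 1.97 FPKM on day 9, against 8.21, 6.89 and 9.87 FPKM on day 6 (log2 difference -2.24 ± 0.24 SE, adjusted p = 6.95e-08). TDR-like models, of the factor that follows UDT1 in rice, rose in 6 of 6 copies by 1.86 to 2.86 on the log2 scale. The highest of them, TraesCS6A03G0158700, had 16.6, 16.1 and 17.5 FPKM on day 9, against 3.75, 2.95 and 3.12 FPKM on day 6 (log2 difference 2.29 ± 0.22 SE, adjusted p = 2.8e-09).

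Persistent tapetal cell 1, a PHD-finger protein that controls tapetum breakdown in rice, rose in all 3 copies. Their means were 1.74 to 2.3 FPKM on day 9, against 0.0133 to 0.1 FPKM on day 6. Both MYB80-like models, which are of the low-confidence class and belong to a factor that acts late in the tapetum, rose too. Their day 6 means were 0.0667 to 0.407 FPKM. At such day 6 levels the models of both families entered the comparison through day 9, which favoured increases. EAT1-like models fell in 5 of 7, and the other 2 did not pass the test. The 2B copy TraesCS2B03G1175100 had 0.81, 1.41 and 2.16 FPKM on day 9, against 4.16, 3.84 and 4.76 FPKM on day 6 (log2 difference -1.62 ± 0.27 SE, adjusted p = 2.11e-05), whereas all 7 rose in basal spikelets over the same days. The 6A copy TraesCS6A03G0720200 (adjusted p = 0.0141) lost its call with DESeq2 (0.0722), without day 9 replicate 1 (0.115) and without day 6 replicate 1 (0.0685). MSP1-type receptor kinases, which limit the number of cells that enter meiosis in rice, fell in 3 of 10 models, by at most 0.88 on the log2 scale. That is near the share over all models, 25.9% lower. In basal spikelets 3 of the 10 fell as well, and none of the steps differed.

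Proteins of small RNA pathways, among them those that make and carry the phased small RNAs of grass anthers, were mostly lower on day 9. Of 106 argonaute, Dicer and RNA-dependent RNA polymerase models, 62 were lower and 9 higher, with a median log2 difference of -0.50, and of the 97 expressed on both days 59 were lower and 5 higher. Dicer homolog 3b, which in grasses cuts the longer class of the anther's phased small RNAs, fell in all 3 copies. The 1D copy TraesCS1D03G0408500 had 0.99, 1.88 and 2.05 FPKM on day 9, against 7.23, 7.01 and 8.29 FPKM on day 6 (log2 difference -2.26 ± 0.28 SE, adjusted p = 2.17e-07). The 1B copy, with a log2 difference of -2.06 and an adjusted p of 1.18e-05, did not pass with DESeq2 (0.0709).

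Argonaute MEL1, which carries phased small RNAs in germ cells of rice, fell in 7 of 14 models. TraesCS5B03G1107400 was the strongest, with 2.47, 5.65 and 2.48 FPKM on day 9, against 20.3, 16 and 15.8 FPKM on day 6 (log2 difference -2.36 ± 0.25 SE, adjusted p = 1.79e-08), and day 9 replicate 2 was the highest of its day. The 4 argonaute 1D-like models all fell, by 1.9 to 2.17 on the log2 scale. Argonaute 18 and argonaute 14 went the other way, with 2 of 2 models higher each. The argonaute 18-like model TraesCS3B03G0322200 had 5.62, 5.27 and 5.74 FPKM on day 9, against 0.48, 0.19 and 0.39 FPKM on day 6 (log2 difference 3.88 ± 0.38 SE, adjusted p = 5.19e-09), and the argonaute 14-like model TraesCS2A03G0351000 had 9.75, 9.51 and 9.38 FPKM on day 9, against 2.41, 1.84 and 2.22 FPKM on day 6 (log2 difference 2.08 ± 0.31 SE, adjusted p = 5.01e-06).

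Meiosis genes were more often lower than higher, by small amounts. Of 65 models, 39 were lower and 3 higher, with a median of -0.53, and of the 55 expressed on both days 34 were lower and 3 higher. With a filter of 5 FPKM, which left 29 models, 14 were lower and 3 higher. PAIR3, needed for chromosome pairing in rice, fell in 8 of 8 models by 0.42 to 0.96 on the log2 scale. The recombinase DMC1 had 5.72, 8.89 and 6.15 FPKM on day 9, against 10.1, 8.79 and 9.32 FPKM on day 6 on 5D, TraesCS5D03G0353500 (log2 difference -0.50 ± 0.15 SE, adjusted p = 0.00875); it missed the threshold without day 9 replicate 1 (adjusted p = 0.0696) and without day 9 replicate 3 (0.0546). Its 5B partner averaged 5.03 ± 0.71 FPKM on day 9 and 5.73 ± 0.79 FPKM on day 6 (SD, n = 3 each) and did not pass the test. PAIR2, a chromosome axis protein, was called lower in 1 of 4 models and REC8, the meiotic cohesin, in 2 of 3. The 3 increases were models of "required for meiotic nuclear division" proteins, for example TraesCS2A03G0160100 with 7.03 ± 0.54 FPKM on day 9 and 4.58 ± 0.11 FPKM on day 6 (SD, n = 3 each).

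Genes of cell division fell, together with the histones that package new DNA. Of 328 division models, 201 were lower and 25 higher (median -0.60), and of 273 histone models 238 were lower and 1 higher (median -0.89). Over models expressed on both days, 194 of 316 division models were lower and 23 higher, and 232 of 264 histone models were lower and 1 higher. Summed histone expression was 20594 to 26072 FPKM per library on day 9, against 39176 to 42796 FPKM on day 6. Histone H2B.1-like on 4B, TraesCS4B03G0568700, had 133, 145 and 125 FPKM on day 9, against 239, 251 and 268 FPKM on day 6 (log2 difference -0.97 ± 0.12 SE, adjusted p = 3.46e-07). The single increase was the H2A-like model TraesCS1D03G0685500, with 21.1, 19.7 and 20.9 FPKM on day 9, against 14.6, 15 and 17.4 FPKM on day 6 (log2 difference 0.33 ± 0.10 SE, adjusted p = 0.0104), and without day 6 replicate 1 it missed the threshold (adjusted p = 0.0572). Histone copies are so alike that reads may be shared between them, and how the authors assigned shared reads was not given.

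The replication licensing factors MCM2 to MCM7 open DNA for copying, and 16 of 16 models fell by 1.21 to 1.42 on the log2 scale. MCM7 on 5B, TraesCS5B03G0239100, had 30.6, 36.2 and 27.9 FPKM on day 9, against 82.6, 80.4 and 79 FPKM on day 6 (log2 difference -1.42 ± 0.22 SE, adjusted p = 6.27e-06). Cyclin-D4-1 on 5A, TraesCS5A03G0617500, a cyclin of the step into DNA synthesis, had 2.13, 2.13 and 2.21 FPKM on day 9, against 6.26, 6.51 and 7.69 FPKM on day 6 (log2 difference -1.73 ± 0.18 SE, adjusted p = 1.35e-08). B-type cyclin-dependent kinases, which act before mitosis, fell in 9 of 10 models and rose in 1. The kinesin KIN-7J model TraesCS5D03G0729400 was among the 25 increases, with 4.55, 4.04 and 4.43 FPKM on day 9, against 1.09, 1.5 and 1.33 FPKM on day 6 (log2 difference 1.67 ± 0.15 SE, adjusted p = 8.48e-10). Cytosolic ribosomal proteins fell in 176 of 445 models and rose in 11 (174 and 11 of the 438 expressed on both days), and the median change was small at -0.22. With limma on log2(FPKM + 0.1), 115 fell and 17 rose.

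Chlorophyll-binding proteins of the light-harvesting antenna rose in 71 of 72 models compared (98.6%), out of 76 tested. The median log2 difference was 2.38, and over the 52 models expressed on both days it was 2.11 with 51 higher. Summed antenna expression was 4306.4 to 4803.9 FPKM per library on day 9, against 950.8 to 1076.9 FPKM on day 6. The antenna model of light-harvesting complex II on 6D, TraesCS6D03G0175200, on chromosome 6D at 69621989 to 69623064, had 66.3, 60.4 and 65.4 FPKM on day 9, against 1.48, 1.82 and 1.48 FPKM on day 6 (log2 difference 5.26 ± 0.20 SE, adjusted p = 8.81e-17). A 7A model of the same complex, TraesCS7A03G0464000, had 43.1, 36.8 and 41 FPKM on day 9, against 2.37, 1.23 and 2.74 FPKM on day 6 (log2 difference 4.18 ± 0.22 SE, adjusted p = 2.01e-14). In neither gene did the days overlap.

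The photosystem core, electron transport and Calvin cycle list rose in 116 of 130 models with none lower (median 1.75), and chlorophyll synthesis in 29 of 32 with none lower (median 1.47). Over models expressed on both days, 92 of 102 and 25 of 28 were higher. Antenna copies are alike in sequence, so values of single copies may share reads. Phosphoribulokinase, which regenerates the acceptor of carbon dioxide, had 29.1, 26.3 and 28.6 FPKM on day 9, against 4.36, 3.24 and 4.22 FPKM on day 6 on 6D, TraesCS6D03G0599500 (log2 difference 2.76 ± 0.19 SE, adjusted p = 4.16e-12). All 3 of its copies rose. Protochlorophyllide reductases carry out the light-dependent step of chlorophyll synthesis, and 9 of 9 models rose. Protochlorophyllide reductase A on 2D, TraesCS2D03G1257100, had 66.7, 64 and 72.5 FPKM on day 9, against 13.4, 10.3 and 11.9 FPKM on day 6 (log2 difference 2.45 ± 0.17 SE, adjusted p = 6.8e-12).

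On later days, which were looked at for 1 antenna model, the level went both up and down. The 6D model above averaged 1.59, 64, 12.7, 285, 32.5 and 2.56 FPKM on days 6, 9, 12, 15, 21 and 27. Clock genes, many of which peak at a set time of day, moved between the same libraries: LHY on 7B averaged 31.1 ± 3.6 FPKM on day 9 and 5.7 ± 0.24 FPKM on day 6 (SD, n = 3 each). The part of the clock difference in the photosynthesis result was not tested. In basal spikelets antenna genes also rose, in 60 of the 72 models with none lower (median 1.53), while LHY was lower there on day 9 than on day 6.

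Genes of the circadian clock differed strongly between the days. LHY, a factor with a peak near dawn, was higher in all 3 copies. The 7B copy, TraesCS7B03G0535400, lies on chromosome 7B at 331528307 to 331543222 and had 35.2, 28.9 and 29.1 FPKM on day 9, against 5.42, 5.86 and 5.82 FPKM on day 6 (log2 difference 2.38 ± 0.11 SE, adjusted p = 1.83e-15). REVEILLE 6-like on 7D, TraesCS7D03G0033000, a relative of LHY, had 20.7, 19.5 and 21.6 FPKM on day 9, against 4.93, 6.08 and 5.16 FPKM on day 6 (log2 difference 1.87 ± 0.08 SE, adjusted p = 7.35e-16), and LNK4-like on 1D, TraesCS1D03G0182500, a partner of such factors, had 14.7, 13.6 and 13.1 FPKM on day 9, against 1.83, 2.03 and 2.32 FPKM on day 6 (log2 difference 2.68 ± 0.11 SE, adjusted p = 5.02e-16). These 3 models were higher in every day 9 library than in any day 6 library.

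Most genes named here from the later part of the daily cycle fell. GIGANTEA fell in both models, and TraesCS3D03G0245500 had 2.9, 3.48 and 3.4 FPKM on day 9, against 11.6, 11.9 and 12.3 FPKM on day 6 (log2 difference -1.94 ± 0.09 SE, adjusted p = 4.52e-15). The pseudo-response regulator APRR3 fell in 3 of 3 copies, with 3.58, 3.62 and 3.49 FPKM on day 9, against 14.5, 15.1 and 15.5 FPKM on day 6 on 4D, TraesCS4D03G0224500 (log2 difference -2.14 ± 0.07 SE, adjusted p = 2.69e-18). PRR1, the response regulator also called TOC1, had 5.78, 5.9 and 5.41 FPKM on day 9, against 15.7, 15.5 and 16.4 FPKM on day 6 on 6D, TraesCS6D03G0514700 (log2 difference -1.54 ± 0.08 SE, adjusted p = 7.16e-15). PRR73 and PRR95 fell in 3 of 3 copies each, by 0.18 to 0.44 and by 0.41 to 1.08 on the log2 scale. A LUX-like model on 5D, TraesCS5D03G0387500, of the evening complex, rose with 6.07, 5.5 and 5.3 FPKM on day 9, against 0.46, 0.44 and 0.38 FPKM on day 6 (log2 difference 3.65 ± 0.17 SE, adjusted p = 1.54e-15). Over the whole clock list of 44 models, 12 were higher and 16 lower, with a median of -0.06. The hour of sampling was not given in the sources used here.

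The clock genes did not keep to 1 direction over later days. LHY on 7B averaged 5.7, 31.1, 8.82, 31.3, 45.8 and 44.3 FPKM on days 6, 9, 12, 15, 21 and 27, and GIGANTEA on 3D averaged 11.9, 3.26, 13, 5.37, 14.1 and 13.8 FPKM on days 6, 9, 12, 15, 21 and 27. In both genes the level of day 12 lay nearer that of day 6 and the level of day 15 nearer that of day 9. In basal spikelets LHY 7B averaged 3.91 FPKM on day 9 and 12.7 FPKM on day 6, so it was lower on day 9 there while it was higher in the centre (log2 difference of the steps 4.21 ± 0.15 SE, adjusted p = 7.62e-17). All 3 LHY, 3 APRR3 and 2 GIGANTEA models differed between the positions in that test.

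**Figure D4:**
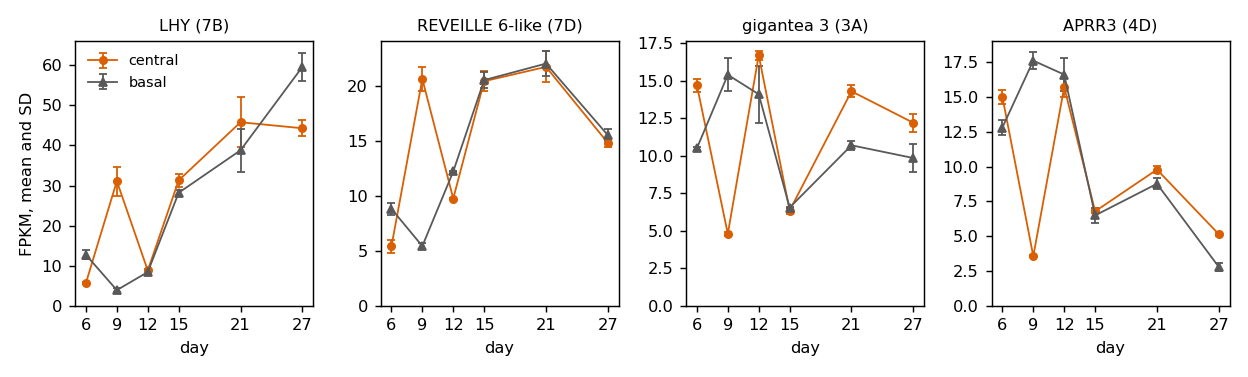
Mean FPKM with SD on the 6 sampled days after the terminal spikelet stage for LHY, REVEILLE 6-like, gigantea 3 and APRR3 in central (orange circles) and basal (grey triangles) spikelets, 3 libraries each except basal day 15 and central day 21 with 2. Between days 6 and 9 the central lines of LHY and REVEILLE 6-like go up while the basal ones go down, and those of gigantea 3 and APRR3 do the opposite.

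Light receptors and light-response factors had 32 of 73 models higher (43.8%) and 16 lower (21.9%), against 22.2% higher and 25.9% lower over all models. Of the 62 expressed on both days, 25 were higher and 13 lower. B-box zinc finger protein 18-like, TraesCS5A03G0769500, had 27.8, 28.2 and 29.2 FPKM on day 9, against 10.2, 9.46 and 9.57 FPKM on day 6 (log2 difference 1.48 ± 0.06 SE, adjusted p = 9.88e-17). CONSTANS-LIKE 9-like, TraesCS7B03G0325400, had 0.94, 0.93 and 0.84 FPKM on day 9, against 2.95, 3.74 and 3.39 FPKM on day 6 (log2 difference -1.95 ± 0.16 SE, adjusted p = 1.23e-10). In basal spikelets the first of these averaged 8.17 FPKM on day 9 and 15.2 FPKM on day 6, a fall, and its steps differed between positions (log2 difference of the steps 2.51 ± 0.08 SE, adjusted p = 1.25e-17).

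Genes of the cuticle and epidermis were mostly higher on day 9. Of 326 cuticle, wax and epidermis models, 200 were higher and 27 lower (median 0.86), and of the 235 expressed on both days 129 were higher and 22 lower. Their sum was 6955.5 to 7260.8 FPKM per library on day 9, against 2855.5 to 3013.8 FPKM on day 6. A type 1 non-specific lipid transfer protein, of the family thought to carry lipids to the cell surface, had 244, 222 and 234 FPKM on day 9, against 4.87, 3.34 and 3.6 FPKM on day 6 on 2B, TraesCS2B03G1259700 (log2 difference 5.81 ± 0.25 SE, adjusted p = 6.22e-16). It lies on chromosome 2B at 704395809 to 704396554. Protodermal factor 1-like on 3A, TraesCS3A03G0240500, an epidermis protein, had 37.4, 29.3 and 26.8 FPKM on day 9, against 0.32, 0.09 and 0.23 FPKM on day 6 (log2 difference 7.10 ± 0.34 SE, adjusted p = 3.88e-15).

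A GDSL lipase on 7D, TraesCS7D03G0245800, had 49.6, 42.3 and 43.9 FPKM on day 9, against 2.34, 1.89 and 2.61 FPKM on day 6 (log2 difference 4.24 ± 0.17 SE, adjusted p = 2.76e-16). WIN1-like, TraesCS7A03G0916200, an ethylene response factor of the type that switches on wax and cutin genes, had 8.2, 7.67 and 8.37 FPKM on day 9, against 0.75, 0.56 and 0.7 FPKM on day 6 (log2 difference 3.52 ± 0.20 SE, adjusted p = 9.01e-14). ECERIFERUM 1-like, TraesCS6A03G0623300, of a wax alkane enzyme group, went the other way with 23.8, 25.3 and 22.3 FPKM on day 9, against 42.5, 43.8 and 43.9 FPKM on day 6 (log2 difference -0.93 ± 0.14 SE, adjusted p = 3.63e-06). In all of these genes the libraries of the 2 days were fully apart.

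Cell wall genes were more often higher than lower. Secondary wall and vascular genes rose in 99 of 200 models and fell in 31 (median 0.35), structural wall proteins rose in 92 of 176 and fell in 27 (median 0.57), and pectin enzymes rose in 70 of 113 and fell in 9 (median 0.63). Over models expressed on both days these counts were 66 higher and 25 lower of 154, 44 higher and 23 lower of 116, and 43 higher and 6 lower of 79, in the same order. The cellulose synthases CESA4, CESA7 and CESA9 build the secondary wall in rice, and 7 of 7 models rose. Their means were 1.38 to 1.96 FPKM on day 9, against 0.03 to 0.317 FPKM on day 6. At these day 6 levels they could enter the comparison only through day 9, which favoured increases. CESA7 on 1B, TraesCS1B03G0493300, had 2.11, 1.7 and 1.83 FPKM on day 9, against 0.07, 0.05 and 0.09 FPKM on day 6 (log2 difference 4.69 ± 0.25 SE, adjusted p = 2.82e-14). Among 13 other cellulose synthase models, at 5.08 to 48.6 FPKM on day 9 and 3.46 to 39.6 FPKM on day 6, 6 rose and 3 fell, none by more than 0.55 on the log2 scale.

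Fasciclin-like arabinogalactan protein 11, TraesCS3D03G0217800, known from secondary walls of stems, had 9.91, 9.02 and 9.34 FPKM on day 9, against 0.13, 0.22 and 0.27 FPKM on day 6 (log2 difference 5.40 ± 0.23 SE, adjusted p = 5.09e-16). A leucine-rich repeat extensin, TraesCS5A03G0991800, had 14.8, 9.14 and 11.1 FPKM on day 9, against 0.07, 0.04 and 0 FPKM on day 6 (adjusted p = 1.88e-14), and proline-rich protein 4-like, TraesCS2D03G0118400, had 10.2, 6.87 and 7.48 FPKM on day 9, against 0.22, 0.11 and 0.12 FPKM on day 6 (log2 difference 5.64 ± 0.24 SE, adjusted p = 1.38e-16). Polygalacturonase-like TraesCS5D03G1037400, a pectin-cutting enzyme, had 9.33, 8.18 and 10.2 FPKM on day 9, against 0.38, 0.18 and 0.27 FPKM on day 6 (log2 difference 4.96 ± 0.24 SE, adjusted p = 1.34e-15). Another, TraesCS1D03G0864500, fell, with 5.43, 4.44 and 3.46 FPKM on day 9, against 17.4, 20.3 and 22.6 FPKM on day 6 (log2 difference -2.24 ± 0.25 SE, adjusted p = 4.11e-08). Pectin enzymes therefore did not move as a block.

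Expansins, xyloglucan enzymes and water channels, which loosen walls and let water in, rose in 61 of 132 models and fell in 22. Peroxidases and antioxidant enzymes rose in 116 of 207 and fell in 14 (median 0.51), and of the 156 expressed on both days 75 rose and 10 fell. Peroxidase 2-like, TraesCS2D03G0228300, had 20.3, 20.1 and 19.3 FPKM on day 9, against 0.39, 0.32 and 0.32 FPKM on day 6 (log2 difference 5.78 ± 0.24 SE, adjusted p = 1.13e-15). The water channel TIP4-1, TraesCS4D03G0799400, fell, with 0.76, 0.43 and 0.67 FPKM on day 9, against 3.8, 4.05 and 4.21 FPKM on day 6 (log2 difference -2.75 ± 0.27 SE, adjusted p = 4.99e-09), while its basal means were 10.5 FPKM on day 9 and 5.66 FPKM on day 6.

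Flavonoid genes rose in 51 of 76 models and fell in 7 (median 1.20); 30 of the 76 reached 1 FPKM on day 9 but in no day 6 library, and of the 39 expressed on both days 21 rose and 4 fell. Chalcone synthase makes the first flavonoid skeleton, and the 5A model TraesCS5A03G0006300 had 6.68, 6.82 and 7.27 FPKM on day 9, against 0, 0.02 and 0 FPKM on day 6 (adjusted p = 1.97e-16). Chalcone isomerases, the next enzymes, rose in 6 of 6 models by 2.7 to 3.92 on the log2 scale. Their day 6 means were 0.107 to 0.853 FPKM, below the threshold of 1 FPKM, which favoured increases. Flavonoid 3',5'-hydroxylase rose in its 3 group 7 copies, to 7.05 to 9.85 FPKM on day 9, against 1.9 to 2.36 FPKM on day 6. A second chalcone synthase, TraesCS7B03G1238700, was lower, with 0.82, 0.5 and 0.45 FPKM on day 9, against 1.08, 1.63 and 1.5 FPKM on day 6 (log2 difference -1.28 ± 0.40 SE, adjusted p = 0.0101), but did not pass with DESeq2 (adjusted p = 0.54). Some of these enzymes also serve pollen walls, and which cells expressed them was not measured.

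Genes of sugar supply were more often higher than lower. Sugar transporters rose in 34 of 74 models and fell in 9 (19 and 5 of the 51 expressed on both days), and sucrose-cleaving enzymes rose in 17 of 33 and fell in 7. Sucrose synthase 1 on 4A, TraesCS4A03G1116300, had 23.2, 20.9 and 22.9 FPKM on day 9, against 2.1, 1.79 and 2.13 FPKM on day 6 (log2 difference 3.41 ± 0.17 SE, adjusted p = 5.56e-15). A second sucrose synthase 1 model on 7D, TraesCS7D03G0358200, had 17, 16.5 and 15.5 FPKM on day 9, against 28.5, 29.9 and 29.1 FPKM on day 6 (log2 difference -0.90 ± 0.14 SE, adjusted p = 9.48e-06), so these models went in opposite directions. A cell wall invertase, TraesCS3D03G1160300, which splits sucrose outside the cell, had 14.3, 13.7 and 15.1 FPKM on day 9, against 3.67, 3.69 and 3.95 FPKM on day 6 (log2 difference 1.86 ± 0.18 SE, adjusted p = 2.09e-09). SWEET1a-like, TraesCS3A03G0954300, a sugar channel, had 25.2, 24.8 and 24 FPKM on day 9, against 7.5, 6.81 and 7.06 FPKM on day 6 (log2 difference 1.73 ± 0.13 SE, adjusted p = 5.13e-11). Trehalose 6-phosphate genes, whose product signals sucrose status in plants, fell in 16 of 34 models and rose in 1 (13 and 1 of the 30 expressed on both days).

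Most TIFY proteins were lower on day 9 in central spikelets and higher on day 9 in basal ones. This family, which include the JAZ repressors that jasmonate itself induces, fell in 13 of 20 models and rose in 1. In basal spikelets over the same days 16 of the 20 rose and none fell, and the steps differed for 17 of 20. TIFY 10c-like on 5A, TraesCS5A03G0549300, had 1.25, 0.46 and 1.33 FPKM on day 9, against 2.62, 2.4 and 2.53 FPKM on day 6 (log2 difference -1.38 ± 0.26 SE, adjusted p = 9.02e-05), and its basal means were 19.1 FPKM on day 9 and 8.15 FPKM on day 6 (log2 difference of the steps -2.48 ± 0.33 SE, adjusted p = 5.29e-06). The receptor COI1 fell in 3 of 6 models, and TraesCS3D03G0798500 had 14.5, 16.2 and 15.9 FPKM on day 9, against 21.3, 22.5 and 23.2 FPKM on day 6 (log2 difference -0.58 ± 0.07 SE, adjusted p = 4.32e-07). Jasmonate synthesis enzymes showed 5 higher and 5 lower of 37 in central spikelets, against 17 higher and none lower in basal ones. Clock genes moved in opposite directions in the 2 positions in these libraries, as given above, and their part in this result was not tested.

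Abscisic acid genes split by role. Synthesis genes showed 4 higher and 3 lower of 8, and of the 3 expressed on both days 2 were higher and none lower. A model of the rate-limiting 9-cis-epoxycarotenoid dioxygenase on 5D, TraesCS5D03G0099600, had 0.43, 0.41 and 0.43 FPKM on day 9, against 1.35, 1.05 and 1.33 FPKM on day 6 (log2 difference -1.62 ± 0.27 SE, adjusted p = 2.61e-05). Below 1 FPKM on day 9, it entered the comparison through its day 6 level, which favoured a decrease. In basal spikelets it averaged 5.14 FPKM on day 9 and 2.12 FPKM on day 6. Abscisic acid 8'-hydroxylase, which breaks the hormone down, rose in 3 of 3 models, for example TraesCS6A03G0725000 with 4.11, 3.96 and 4.2 FPKM on day 9, against 1.07, 0.94 and 0.9 FPKM on day 6 (log2 difference 2.01 ± 0.16 SE, adjusted p = 5.92e-11). Receptor and signalling genes fell in 14 of 34 models and rose in 3 (10 and 3 of the 29 expressed on both days). The abscisic stress-ripening protein TraesCS4B03G0255000 rose, with 182, 157 and 168 FPKM on day 9, against 31.7, 25.4 and 27.9 FPKM on day 6 (log2 difference 2.51 ± 0.13 SE, adjusted p = 9.22e-15).

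Protective proteins of drying cells, that is dehydrins and late embryogenesis abundant proteins, fell in 10 of 20 models and rose in 6, against 13 higher and 1 lower in basal spikelets. Dehydrin COR410 on 6D, TraesCS6D03G0573700, had 66.7, 53.8 and 59.7 FPKM on day 9, against 105, 114 and 103 FPKM on day 6 (log2 difference -0.90 ± 0.11 SE, adjusted p = 1.89e-07), and its basal means were 141 FPKM on day 9 and 73.8 FPKM on day 6. The PCC13-62-like models of group 1, named after a desiccation protein of a resurrection plant, rose instead. TraesCS1D03G0237600 had 12.8, 10.4 and 12.2 FPKM on day 9, against 0, 0 and 0 FPKM on day 6, at least 136-fold higher against a floor of 12 counts in each day 6 library, and TraesCS1A03G0224600 had 13.8, 11.8 and 14 FPKM on day 9, against 0, 0.03 and 0.02 FPKM on day 6 (adjusted p = 3.27e-18). In basal spikelets they averaged 0.183 and 0.0533 FPKM on day 9 and 0.0233 FPKM each on day 6.

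Growth hormone genes are set here beside the shares over all models, 25.9% lower and 22.2% higher. Gibberellin genes fell in 16 of 32 models and rose in 6 (18.8%), and over the 22 expressed on both days 11 fell and 2 rose. Cytokinin genes fell in 18 of 67 (26.9%), near the share over all models, and rose in 6 (9.0%). Auxin genes were above the overall share in both directions, with 64 of 176 lower (36.4%) and 49 higher (27.8%). The gibberellin-responsive protein TraesCS2D03G0413100 had 7.79, 6.59 and 6.86 FPKM on day 9, against 23.7, 24.7 and 27.3 FPKM on day 6 (log2 difference -1.90 ± 0.12 SE, adjusted p = 1.61e-12). Auxin response factor 4-like, TraesCS3D03G0956500, had 40.1, 41 and 36.9 FPKM on day 9, against 67.4, 73.5 and 73.5 FPKM on day 6 (log2 difference -0.92 ± 0.08 SE, adjusted p = 5.21e-10). Ethylene synthesis and response factors fell in 51 of 143 and rose in 30. ERF4, TraesCS2B03G1138900, had 7.71, 6.87 and 5.92 FPKM on day 9, against 18.3, 18.9 and 21.6 FPKM on day 6 (log2 difference -1.58 ± 0.15 SE, adjusted p = 3.36e-09).

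Developmental regulators of the spikelet changed by family. MADS-box factors, which set floral organ identity, showed few decreases: 15 of 71 models were higher (21.1%), 3 lower (4.2%) and 53 not called (median 0.07). The share higher was near the 22.2% over all models, while 25.9% of all models were lower. In basal spikelets 5 were higher and 23 lower, and the step was more positive in the centre for 22 models and more negative for 2. MADS1-like on 4D, TraesCS4D03G0586600, of a lemma and palea identity group in rice, had 56.7, 45.7 and 49.1 FPKM on day 9, against 30.2, 30.4 and 30.6 FPKM on day 6 (log2 difference 0.67 ± 0.07 SE, adjusted p = 4.17e-08). TaAGL14, TraesCS3D03G0654800, fell with 29.6, 26.9 and 30.9 FPKM on day 9, against 59.6, 57.8 and 59.7 FPKM on day 6 (log2 difference -1.08 ± 0.13 SE, adjusted p = 1.13e-07). TCP factors, which restrain or promote cell division, fell in 14 of 36 and rose in 1 (11 and 1 of the 29 expressed on both days), though with a filter of 5 FPKM, which left 12 models, 2 fell and 2 rose. YABBY and other organ polarity factors fell in 11 of 24 and rose in 2. YABBY 4-like on 6A, TraesCS6A03G0650400, had 5.15, 6.18 and 5.79 FPKM on day 9, against 22.1, 23.1 and 25.5 FPKM on day 6 (log2 difference -2.11 ± 0.15 SE, adjusted p = 6.95e-12).

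Squamosa promoter-binding-like factors rose in 13 of 35 and fell in 2 (9 and 2 of the 31 expressed on both days). Homeobox-leucine zipper factors fell in 27 of 66 (40.9%) and rose in 17 (25.8%), against 25.9% lower and 22.2% higher over all models. Over the 56 expressed on both days, 19 fell and 15 rose. HOX12 on 4A, TraesCS4A03G0078800, had 1.41, 1.63 and 1.19 FPKM on day 9, against 4.87, 5.99 and 5.05 FPKM on day 6 (log2 difference -1.97 ± 0.20 SE, adjusted p = 5.66e-09), far below its basal means of 49.7 FPKM on day 9 and 43.5 FPKM on day 6. Meristem and growth-regulating factors fell in 20 of 52 and rose in 13, though with a filter of 5 FPKM 11 fell and 13 rose, and growth-regulating factor 9-like, TraesCS4D03G0032000, had 3.76, 4.69 and 3.79 FPKM on day 9, against 8.54, 9.59 and 9.03 FPKM on day 6 (log2 difference -1.21 ± 0.16 SE, adjusted p = 4.47e-07).

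Stress and defence genes showed no common direction. Over all models compared, 22.2% were higher and 25.9% lower. Defence-related models were higher in 107 (32.6%) and lower in 113 (34.5%) of 328. Heat shock proteins and factors were nearer the shares over all models, with 67 higher (29.8%) and 57 lower (25.3%) of 225. Heat shock cognate 70 kDa protein 2-like, TraesCS4D03G0507200, had 41.2, 40.9 and 46.3 FPKM on day 9, against 6.5, 6.34 and 6.54 FPKM on day 6 (log2 difference 2.66 ± 0.13 SE, adjusted p = 8.47e-15), whereas heat stress factor A-3-like, TraesCS2B03G0557700, had 0.31, 0.24 and 0.33 FPKM on day 9, against 1.67, 1.41 and 1.3 FPKM on day 6 (log2 difference -2.40 ± 0.28 SE, adjusted p = 1.03e-07). Among the anther and pollen genes, 13 of 39 models were higher (33.3%) and 11 lower (28.2%), and of 4 pistil and ovule models 1 was higher. The MZm3-3-like anther protein TraesCS5D03G0721500, a small secreted protein named from maize anthers, was an anther gene that rose strongly, with 45.1, 38.4 and 45.1 FPKM on day 9, against 1.92, 0.97 and 1.31 FPKM on day 6 (log2 difference 4.84 ± 0.31 SE, adjusted p = 8.5e-13).

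Large decreases were fewer and included enzymes and inhibitors of several kinds. The subtilisin-chymotrypsin inhibitor 2A, TraesCS1A03G0098300, had 2.63, 1.77 and 2.24 FPKM on day 9, against 18, 17.1 and 14.6 FPKM on day 6 (log2 difference -2.96 ± 0.28 SE, adjusted p = 5.77e-09). Polyamine oxidase 4 on 2B, TraesCS2B03G1446000, which breaks down polyamines, had 2.88, 2.74 and 3.01 FPKM on day 9, against 18.9, 18.4 and 17.7 FPKM on day 6 (log2 difference -2.74 ± 0.12 SE, adjusted p = 1.64e-15). Its level on later central days was 27.5, 9.99, 13.1 and 27.6 FPKM on days 12, 15, 21 and 27, so day 9 was its low point among the 6 days. Osmotin-like protein TraesCS3D03G0779900 had 1.53, 2.73 and 2.07 FPKM on day 9, against 12.3, 11.2 and 11.9 FPKM on day 6 (log2 difference -2.55 ± 0.35 SE, adjusted p = 1.24e-06). Dof zinc finger protein 3, TraesCS2B03G1484400, had 1.76, 0.95 and 1.58 FPKM on day 9, against 7.04, 6.76 and 7.76 FPKM on day 6 (log2 difference -2.39 ± 0.32 SE, adjusted p = 8.61e-07).

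The same step from day 6 to day 9 was tested in basal spikelets and the difference of the 2 steps with it. Over the 55333 models, the basal step had 10173 higher (18.4%) and 11324 lower (20.5%). Both positions rose for 6319 models and both fell for 6992, and across models the 2 log2 differences, which share no library, had a Pearson r of 0.58. The central step was above the basal step for 4359 models (7.88%) and below it for 4685 (8.47%), together 9044 models (16.3%). Among these, 399 rose in the centre and fell in the base, and 861 fell in the centre and rose in the base.

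Pollen wall genes were compared between positions gene by gene, because 22 of the 33 models had entered through their level on central day 9. Over the 7 models with at least 1 FPKM in at least 2 libraries of all 4 groups, 1 was higher and 1 lower in central spikelets and 1 was higher in basal ones. Summed basal expression of the 33 models was 54.3 to 59.4 FPKM on day 9 and 38.5 to 40.3 FPKM on day 6. For TKPR1-like on 5B the basal means were 0.757 FPKM on day 9 and 0.763 FPKM on day 6 (log2 difference of the steps 4.70 ± 0.27 SE, adjusted p = 5.89e-13). Not every gene of the list was alike. The step was more positive in the centre for 14 of the 33 models, a count favoured by entry through central day 9, and more negative for 1. None of the 3 ABCG26, 3 GII-like and 3 QRT1 models passed the test of the difference of the steps. RAFTIN 1A was higher on day 9 in basal spikelets too, with means of 6.8 FPKM on day 9 and 0.603 FPKM on day 6, and its steps did not pass the test of their difference (adjusted p = 0.72). Of the tapetum regulators, UDT1-like on 2A averaged 3.3 FPKM on day 9 and 2.48 FPKM on day 6 in basal spikelets (log2 difference of the steps -2.51 ± 0.34 SE, adjusted p = 1.43e-05).

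Other lists were compared between positions over the models with at least 1 FPKM in at least 2 libraries of all 4 groups, so that neither position decided which entered. Over all 45215 such models, 3492 steps were more positive and 3663 more negative in the centre. Of 47 antenna models, the step was more positive in the centre for 13 and more negative for none, with a median of 1.99 in central and 1.47 in basal spikelets. Histones and division genes fell in both positions, with medians of -0.88 in central and -0.85 in basal spikelets for histones, and of -0.63 in central and -0.53 in basal spikelets for division genes. Cytosolic ribosomal proteins fell in 174 of 434 models in central and in 312 in basal spikelets, and the step was more positive in the centre for 43 and more negative for 5. Of 18 jasmonate response models, 13 were lower and none higher in central spikelets, against 8 higher and none lower in basal ones, and the step was more negative in the centre for 13. Among the named genes with the largest differences of steps, protodermal factor 1-like on 3A had basal means of 1.15 FPKM on day 9 and 0.46 FPKM on day 6 (log2 difference of the steps 5.90 ± 0.58 SE, adjusted p = 4.32e-08), and tricetin O-methyltransferase TraesCS3A03G1266900 had 8.55, 7.43 and 5.65 FPKM on day 9, against 0.14, 0.07 and 0.12 FPKM on day 6, with basal means of 0.133 FPKM on day 9 and 0.107 FPKM on day 6 (log2 difference of the steps 5.73 ± 0.60 SE, adjusted p = 1.39e-07). In the other direction, polyamine oxidase 4 had basal means of 21.1 FPKM on day 9 and 9.93 FPKM on day 6 (log2 difference of the steps -3.69 ± 0.17 SE, adjusted p = 8.37e-15). The myb-related protein Zm38-like, TraesCS4D03G0476500, did not pass the test between the central days, with 6.89, 9.6 and 8.68 FPKM on day 9, against 7.89, 4.71 and 7.83 FPKM on day 6, while its basal means were 4.22 FPKM on day 9 and 0.103 FPKM on day 6 (log2 difference of the steps -4.96 ± 0.61 SE, adjusted p = 4.81e-06).

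**Figure D5:**
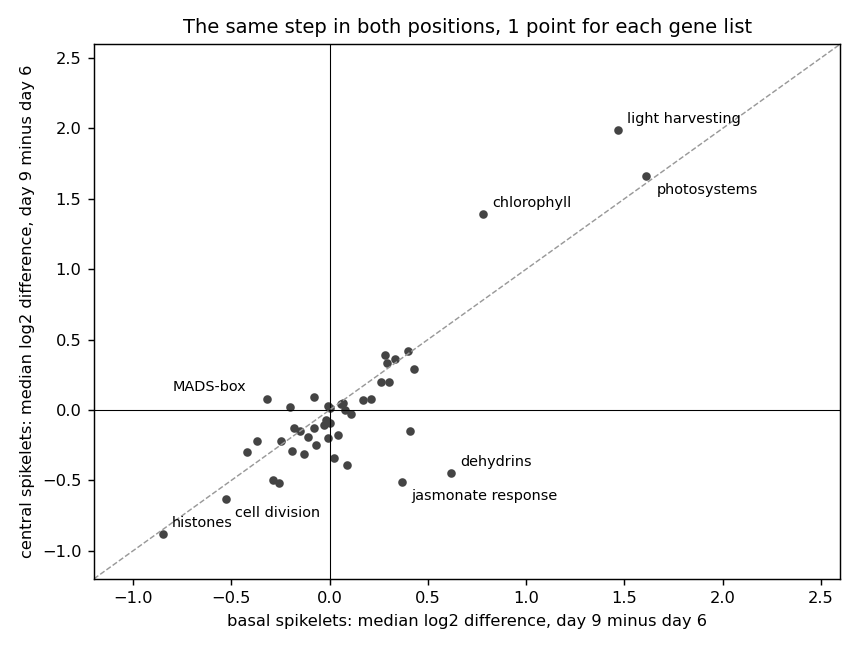
Median log2 difference, day 9 minus day 6, of each gene list in central (vertical axis) against basal (horizontal axis) spikelets, over models with at least 1 FPKM in at least 2 libraries of all 4 groups, for lists with at least 10 such models; the dashed line marks equal medians. Light-harvesting genes lie at 1.99 in central and 1.47 in basal spikelets, and jasmonate response genes at -0.51 in central and 0.37 in basal spikelets.

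Bread wheat carries 3 subgenomes, A, B and D, and corresponding genes on them are called homoeologs. Among 4121 sets of 3 homoeologs with the same description on the same chromosome group, all 3 copies were higher in 623 and all 3 lower in 879, and none was called in 1108. In 1486 sets 1 or 2 copies were called in 1 direction, and in 25 copies were called in opposite directions. An example of the last kind was the tryptophan synthase alpha chain-like set on group 5, with log2 differences of -1.42 on 5A and -0.81 on 5B and an increase of 1.40 on 5D. Increases were called for 886 A, 904 B and 881 D copies, and decreases for 1350 A, 1336 B and 1362 D copies. Near-identical copies may share reads, and how the authors assigned them was not given, so single copies carry that limit. Another tested model overlapped 12 of the 88 genes named here, on the opposite strand for 11 of them, and whether reads were counted by strand was not given. These 12 are the subtilisin-chymotrypsin inhibitor, the lipid transfer protein, proline-rich protein 4-like, protochlorophyllide reductase A, COI1a, growth-regulating factor 9-like, fatty acyl-CoA reductase 2-like, TIP4-1, TKPR1-like on 5A, DMC1 on 5D, RAFTIN 1A and LHY on 7B.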

How the data were processed

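Total RNA of wheat spikelets was sequenced in 34 libraries, of which 6 central libraries make the main comparison and 6 basal ones its counterpart. The authors deposited 1 table with whole estimated counts and FPKM for each gene model, per the file headers, and small values in the count columns fall at multiples of 4 more often than others. The submitters' processing notes name Bowtie 0.12.2 and the mouse builds mm8 and mm9, which are not wheat; the aligner, the counter, strand use and the build of the wheat genome are not given in the sources used here. By position, 95.4% of the high-confidence models compared met a coding gene annotated on IWGSC CS RefSeq v2.1, and 6.6% did so when positions were moved by 5 Mb. Coordinates are printed as the deposited table gives them. No sequence is printed.

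The 71963 models with at least 1 FPKM in at least 2 of 34 libraries were tested with edgeR 4.0.16 in R 4.3.3 (TMM scaling, quasi-likelihood F-test, 12 group means), with Benjamini-Hochberg adjustment over all of them and a threshold of 0.05. The step from day 6 to day 9 was tested in central and basal spikelets, and the difference of the steps as an interaction. FPKM values as deposited were used for levels. The list-by-list comparison of the 2 positions used models expressed in all 4 groups, a choice made after seeing the data. Basal counts given beside central ones in other paragraphs cover the models chosen by their FPKM in the 6 central libraries. Each SE was taken from the log2 difference and its F statistic. Where all day 6 libraries were at 0, folds are lower bounds against a floor of 12 counts per library (3 fragments of 4 counts), which covers counting error only; no fold is given where day 6 held only a few counts. On simulated data over 71963 models, 66 or 67 models were changed at each fold and all others had equal means on the 2 central days. The simulated spread followed the trend over all models. The share of true changes found was 23.9% at 1.5-fold, 68.7% at 2-fold and 97% at 4-fold, while 15 of 141 calls were false. In the data 42.0% of the models tested were called, far more than were changed in the simulation, so these rates need not hold for the comparison here. No pair of libraries held near-identical counts.

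Genes were named by rule: high-confidence models with a description, at least 5 FPKM in the higher group and groups that did not overlap, taking 1 for each description. These were the 12 largest changes each way, the 2 with the smallest p each way in each list (with at least 1 FPKM), the 6 largest differences of steps each way, the clock genes and the homoeologs. RAFTIN, ABCG26, GII, EAT1 and some other pollen wall, tapetum, meiosis, flavonoid and division genes, the gene families, and the lists for tapetum regulators, pollen wall, small RNA and structural wall proteins were chosen after their values were seen. The members and lists were chosen with earlier results of these data known, by words in the deposited descriptions. Alternatives were other scalings and filters, DESeq2 1.42.0, limma 3.58.1 on log2(FPKM + 1) and log2(FPKM + 0.1), fewer libraries, counts divided by 4, a replicate block and leaving out each library.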

Additional observations from a re-analysis of the deposited data

Results flagged for a closer look

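The central and basal steps from day 6 to day 9 differed for 9044 models in the test of their difference. The values of 9 genes whose differing steps are printed above follow, each as the central step minus the basal step on the log2 scale; steps of other named genes and families differed as well. The central step was the higher for protodermal factor 1-like on 3A (5.9), tricetin O-methyltransferase on 3A (5.73), TKPR1-like on 5B (4.7), LHY on 7B (4.21) and B-box zinc finger protein 18-like on 5A (2.51). It was the lower for myb-related protein Zm38-like on 4D (-4.96), polyamine oxidase 4 on 2B (-3.69), UDT1-like on 2A (-2.51) and TIFY 10c-like on 5A (-2.48).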

How the results depend on the processing

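Across 23 alternative settings the total counts of increases, decreases and differing steps stayed within 1.5 times the reported ones, and no named gene reversed. Counts for some lists moved further. MADS-box increases reached 26 against 15, cytosolic ribosomal decreases fell to 115 against 176, and meiosis decreases fell to 14 against 39 with a filter of 5 FPKM. Of the 23 settings, 16 gave counts of models higher and lower in central spikelets, and the others gave only counts of models whose steps differed. Increases ranged from 10305 with a filter of 5 FPKM, which kept 35436 models, to 14526 with the 6 central libraries alone, and decreases from 9738 to 14797 under the same settings. Increases were 46.2% of the calls as reported, and they were 51.4% with that filter, 52.3% with no filter (11798 higher and 10778 lower), 54.9% with limma on log2(FPKM + 1) (14143 and 11641) and 56.7% with limma on log2(FPKM + 0.1). Leaving out 1 central library gave 10934 to 11713 increases and 12027 to 12880 decreases, and leaving out 1 library of either position gave 7452 to 8000 differing steps. The number of differing steps otherwise ranged from 6688 with no filter to 11694 with 12 libraries, against 9044. No clear pairing of the samples by replicate number was seen. Deviations from the group means correlated at 0.005, -0.002 and 0.066 for equal numbers and at -0.046 to 0.041 for others. With so few libraries in each group, these values cannot exclude a pairing. A replicate block gave 12210 increases, 14102 decreases and 8754 differing steps. Of the values of named genes under these settings, 1610 kept their direction and their side of the threshold, 8 lost significance and 2 gained it; each is given with its gene above. The cause of these shifts was not tested. With the filter of 5 FPKM, which keeps fewer models, small RNA genes were lower in 34 of 64 models and higher in 5, pectin enzymes higher in 45 of 69 and lower in 5, flavonoid genes higher in 32 of 42 and lower in 2, and tapetum regulators higher in 6 of 15 and lower in 5. Models with few FPKM carry few counts, which limits the precision of their differences.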

Other observations

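Several lists outside the main account moved little or unevenly between the days in central spikelets. Starch synthesis genes were higher in 9 of 51 models and lower in 12, against 13 higher and 1 lower in basal spikelets. Starch breakdown genes were higher in 3 of 41 and lower in 11, against 12 higher and 1 lower in basal spikelets; with limma on log2(FPKM + 0.1) 6 were higher and 5 lower in central spikelets. The step was more negative in the centre for 12 starch synthesis and 9 starch breakdown models. Nitrogen assimilation genes, which fix ammonium into amino acids, were higher in 7 of 22 and lower in 1. Models described as transposon proteins were higher in 15 of 125 and lower in 11, and autophagy and cell death genes were higher in 13 of 82 and lower in 11, both under the shares over all models compared. Cold response genes were higher in 10 of 35 and lower in 14.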
